A study of Mus musculus with 8 samples.

Results

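The miR-26 and miR-101 families were followed across stroma, mature ducts and terminal end buds (TEBs) of the mouse mammary gland. The 4 members, mmu-miR-26a, mmu-miR-26b, mmu-miR-101a and mmu-miR-101b (written without the species prefix from here on), were chosen by name and not by their signals, as the miRNAs of both families that can bind the Ezh2 mRNA. They are 4 of the 611 mouse miRNAs on the array. Of these, miR-26a, miR-26b and miR-101a were detected on all 8 arrays, whereas miR-101b was detected on 1 of 8 and did not pass the filter of the main test.

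A miRNA pairs through its seed, the bases next to its 5′ end, with sites in the untranslated ends of mRNAs, and lowers the stability and translation of those mRNAs. Ezh2 is the catalytic subunit of Polycomb repressive complex 2, which adds methyl groups to a lysine of histone H3 and thereby keeps genes silent. In the mammary gland, as in many epithelia, Ezh2 is known for its part in progenitor cells and in tumours, and both families are known to lower it. The arrays measured miRNAs and no mRNA, so that the level of Ezh2 itself was not analysed here.

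The mature sequences are shown because the seed defines each family and because members of 1 family are near-identical outside it. They are given 5′ to 3′ from RefSeq (GRCm38.p6), and all 4 members matched an entry. Capitals mark bases 2 to 8, except in miR-101b, where they mark the bases that match the seed of miR-101a.
miR-26a: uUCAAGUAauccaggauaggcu
miR-26b: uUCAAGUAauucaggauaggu
miR-101a: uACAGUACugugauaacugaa
miR-101b: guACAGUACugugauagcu
miR-26a and miR-26b shared the seed and differed by the substitutions C11U and C21U, counted from the 5′ end of miR-26a, in 21 aligned bases. miR-101a and miR-101b differed by A16G, counted from the 5′ end of miR-101a, in 18 aligned bases. The RefSeq form of miR-101b starts 1 base earlier, so that its own bases 2 to 8 are not those of miR-101a. Probe sequences were not used here, and whether a probe also bound the other member of its family was not tested.

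The 4 miRNAs come from 5 hairpins on 5 chromosomes in GRCm38.p6. miR-26a has a pair of genes with the same mature sequence, Mir26a-1 at chr9:119031796-119031885 (plus strand) inside the span of Ctdspl and Mir26a-2 at chr10:126995530-126995613 (plus strand) inside Ctdsp2. Mir26b lies at chr1:74394310-74394394 (plus strand) inside Ctdsp1, so that all 3 miR-26 hairpins lie within genes of the small C-terminal domain phosphatase family. Mir101a lies at chr4:101346945-101347027 (minus strand) inside the span of E130102H24Rik, and Mir101b at chr19:29135279-29135375 (plus strand) inside that of Rcl1. The annotation used gives gene spans and not exons. The array signal for miR-26a is the sum over both of its genes.

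The tissues came from 5-week-old female FVB/n mice carrying a beta actin-GFP reporter, in which GFP driven by the beta actin promoter makes the ductal tree visible. TEBs, the club-shaped growing tips of the ducts (3 arrays), mature ducts (2 arrays) and distal stroma, taken away from the ducts (3 arrays), were dissected from mammary glands 2 to 5 under a fluorescence microscope. All 3 groups share genotype, age and lack of treatment, and differ by tissue. Nothing in the labels says which animals gave which RNA or whether RNAs were pooled, so that p-values measure the spread between these samples, which may be technical. The fractions are micro-dissected tissue, not sorted cells, and fewer cells of a type and less of a miRNA per cell cannot be told apart.

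The values are total signal intensities in arbitrary units, background-subtracted by the scanner software, so that a weak signal can be negative. Between 142 and 169 mouse miRNAs were detected per array, and the summed signal per array ran from 54238.6 to 88828.3 units. Each array was brought to a common 75th percentile, taken over the 108 miRNAs that every array detected, with factors of 0.750 and 0.802 for the duct arrays and 0.946 to 1.36 for the others. Tests by limma with Benjamini-Hochberg adjustment covered 167 miRNAs, those that some tissue showed on all of its arrays. Over these, arrays of the same tissue correlated with r of 0.955 to 0.987 and those of different tissues with r between 0.645 and 0.926.

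miR-26a, the more studied member of its family, was lowest in TEBs. Its scaled signal was 567, 488 and 639 units in stroma (565 ± 75.7, SD, n = 3), 526 and 475 units in ducts (501 ± 36.2, n = 2) and 404, 354 and 356 units in TEBs (372 ± 28.4, n = 3). All 3 TEB arrays lay below every duct and stroma array, whereas the duct and stroma arrays overlapped. The signal was 12.2 to 12.4 times the scanner's error estimate on every array.

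miR-26b, which carries the same seed, followed the same order of tissue means. Its scaled signal was 483, 506 and 457 units in stroma (482 ± 24.6, n = 3), 349 and 403 units in ducts (376 ± 37.9, n = 2), and 282, 320.0 and 270.0 units in TEBs (291 ± 26.2, n = 3). No tissue overlapped with another for this miRNA. The signal was 12.6 to 13.2 times its error.

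miR-101a, the detected member of the other family, gave scaled signals of 126, 117 and 137 units in stroma (126 ± 10.1, n = 3), 76.8 and 112 units in ducts (94.4 ± 24.8, n = 2) and 75.9, 78.7 and 69.5 units in TEBs (74.7 ± 4.70, n = 3). The stroma arrays lay above all others. Of the ducts, replicate 1 lay among the TEB arrays and replicate 2 near the stroma arrays, and the coefficient of variation was 26.3% in ducts against 6.29% in TEBs and 7.97% in stroma. The signal was 8.02 to 11.9 times its error.

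miR-101b was at background. Its scaled signal was 2.48, -5.10 and 3.16 units in stroma, -7.75 and 5.87 units in ducts, and 3.74, 8.97 and 6.92 units in TEBs, with TEB replicate 2 the only array on which it was detected. Signals were -0.996 to 2.05 times their error, so no difference between tissues was detectable at this signal. With the detection filter loosened to 1 array, or dropped, it passed in no comparison, with adjusted p-values of 0.109 to 1 by limma. On the same arrays miR-101a was detected every time.

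**Figure D1:**
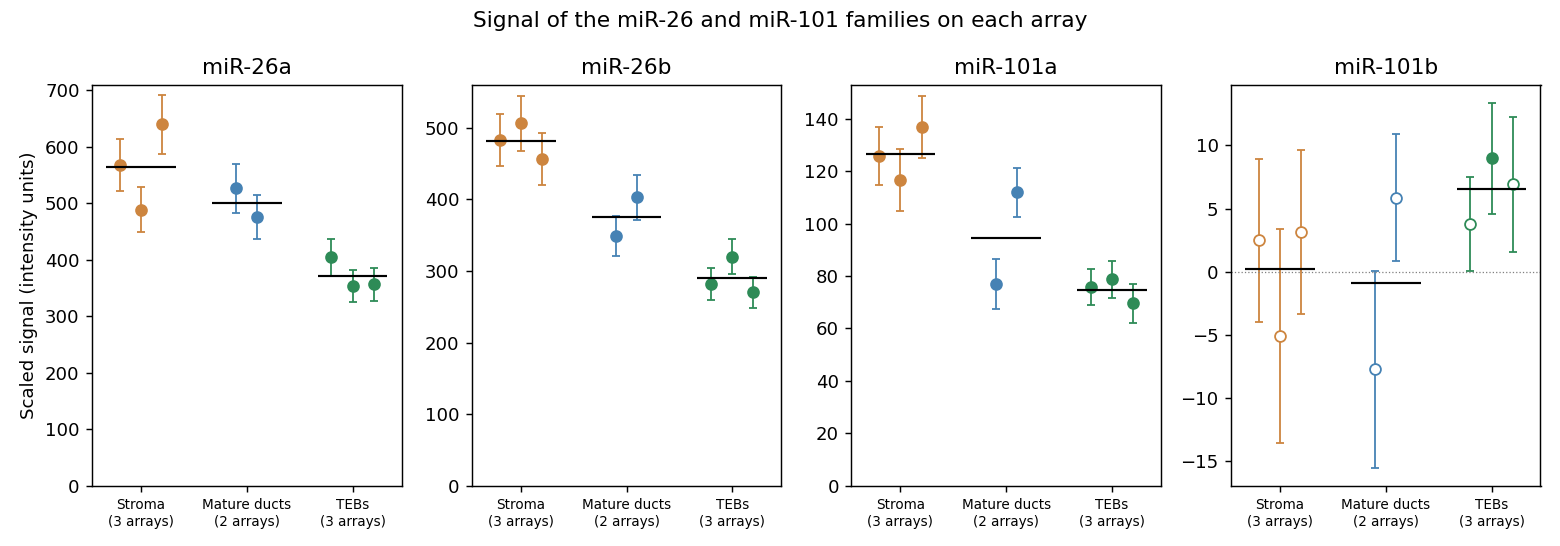
Scaled signal (arbitrary units, one panel and one axis range per miRNA) of miR-26a, miR-26b, miR-101a and miR-101b on each array, by tissue. Filled points were detected and open points were not, bars are the scanner's error and horizontal lines are tissue means. For the first 3 miRNAs the tissue mean is highest in stroma and lowest in TEBs, and miR-101b lies between -7.75 and 8.97 units.

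TEBs were compared with stroma to find the miRNAs that separate the growing tips of the ducts from distal stroma. All 3 measured members were lower in TEBs, miR-26a by 1.51-fold, miR-26b by 1.66-fold and miR-101a by 1.69-fold. The log2 differences were -0.60 ± 0.13 (SE, adjusted p = 0.00731) for miR-26a, -0.73 ± 0.11 (adjusted p = 0.00153) for miR-26b and -0.76 ± 0.16 (adjusted p = 0.00644) for miR-101a by limma. The arrays did not overlap for any of the 3. Within each of the 2 rows of the slide, which both held all tissues, the differences were -0.58 and -0.65 for miR-26a, -0.69 and -0.83 for miR-26b and -0.70 and -0.86 for miR-101a.

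Such differences were common in that comparison. Of the 167 miRNAs tested, 64.7% were called in either direction, 44.3% were called lower in TEBs and 48.5% had TEB arrays that all lay below the stroma arrays. The median log2 difference over all 167 was -0.28, and the members lay below it by 0.32 (miR-26a), 0.46 (miR-26b) and 0.48 (miR-101a) on the log2 scale. Between 29.3% and 34.7% of the tested miRNAs had lower values than the members. The calls were lost when the arrays were scaled to the percentile over all 611 miRNAs or not scaled, with the direction kept, as given with the scalings further on.

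TEBs and mature ducts are both epithelial structures, and their comparison asks what sets the growing tip apart from the tube behind it. None of the 3 members passed the test there. miR-26a was 1.35-fold lower in TEBs (log2 difference -0.43, 95% interval -0.77 to -0.09, adjusted p = 0.0616) and miR-26b 1.29-fold lower (-0.37, interval -0.66 to -0.08, adjusted p = 0.0569). miR-101a differed by -0.31 (interval -0.73 to 0.11, adjusted p = 0.205). Without adjustment, 2 of the 3 had p under 0.05 by limma, against 49.1% of all tested miRNAs, and 1 of 3 by the methods' t-test, against 31.7%.

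The TEB arrays lay below both duct arrays for miR-26a and miR-26b, and overlapped with them for miR-101a. Of all tested miRNAs, 43.1% had TEB arrays below both duct arrays and 24.6% were called in either direction, and the median difference was -0.10. With only 2 duct arrays, the 3 intervals together ran from -0.77 to 0.11. Within the 2 rows of the slide miR-101a differed by 0.0088 and -0.69, against -0.48 and -0.42 for miR-26a and -0.22 and -0.58 for miR-26b. The comparison also moved when single arrays were left out, with the scaling factors formed anew from the arrays kept. miR-26a and miR-26b passed the test without stroma replicate 2 (-0.54 and -0.48) or TEB replicate 1 (-0.71 and -0.57). Stroma replicate 2 is in neither tissue compared, so that its leaving out acted on these differences through the scaling. Without duct replicate 1 the differences were -0.57 and -0.69, and without duct replicate 2 they were -0.51 and -0.27. Each of these fits leaves a single duct array, so that only the size of the difference is given. Neither miRNA passed without stroma replicate 1 or 3, or TEB replicate 2 or 3.

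Ducts and stroma did not differ past the threshold for any of the 3 members either. The log2 difference of ducts over stroma was -0.17 for miR-26a (interval -0.51 to 0.17, adjusted p = 0.492), -0.36 for miR-26b (interval -0.65 to -0.07, adjusted p = 0.0821) and -0.44 for miR-101a (interval -0.86 to -0.02, adjusted p = 0.124). Unadjusted, 2 of 3 had p under 0.05 by limma, against 35.3% of all tested miRNAs, and 1 of 3 by the methods' t-test, against 28.5% of the 165 for which it could be formed. Both duct arrays lay below all stroma arrays for miR-26b and miR-101a, which was so for 22.8% of the tested miRNAs, and 21.6% were called in either direction. Within the 2 rows of the slide the differences were -0.11 and -0.23 for miR-26a, -0.47 and -0.26 for miR-26b and -0.71 and -0.17 for miR-101a. With a duct array left out and the scaling factors formed anew, the difference of miR-101a was -0.72 without duct replicate 2 and 0.04 without duct replicate 1. At the main scaling duct replicates 1 and 2 stood at 76.8 and 112 units, both below the stroma arrays at 117 to 137. The change of sign therefore came with the new factors.

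At the main scaling the mean order was therefore stroma, ducts, TEBs for miR-26a, miR-26b and miR-101a. Stroma and TEBs, the ends of that order, differed there beyond the spread between arrays, while the neighbours in it did not pass the test. The place of the ducts and the calls in TEBs over stroma depended on the scaling, as given further on.

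**Figure D2:**
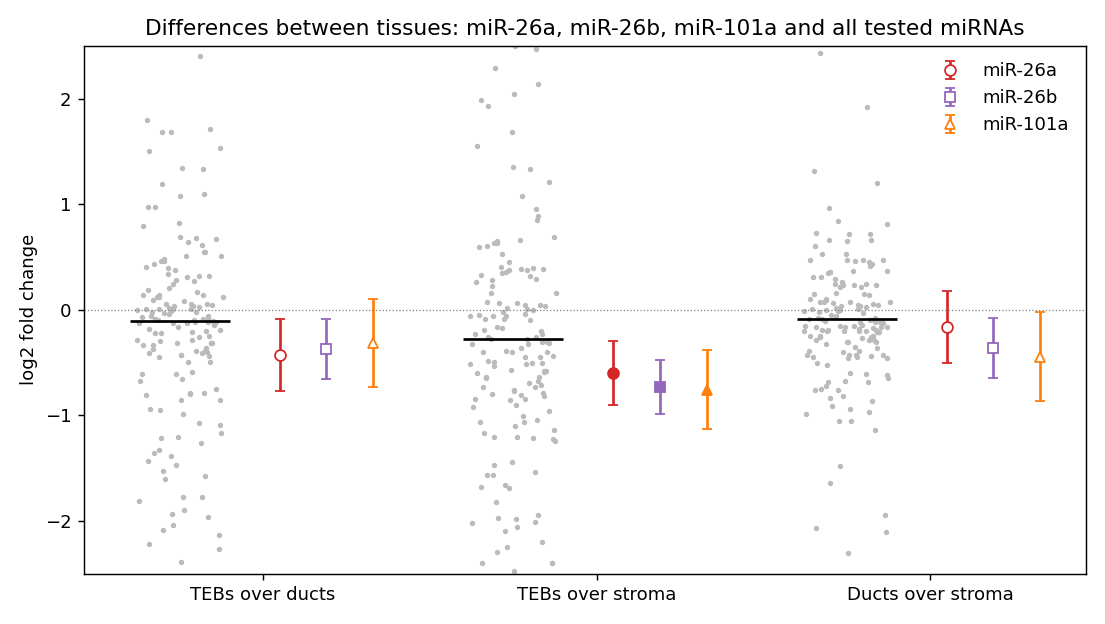
Log2 fold change between tissues for miR-26a, miR-26b and miR-101a, with 95% intervals, beside all 167 tested miRNAs (grey points, with the black line at their median). Filled symbols had an adjusted p under 0.05 and open symbols did not. The axis ends at 2.5 in either direction, so that 11 miRNAs of the first comparison, 18 of the second and 10 of the third are not drawn. The members are filled in TEBs over stroma, where they lie at -0.60 to -0.76 against a median of -0.28.

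Because miR-26a and miR-26b share a seed and each array carries both, differences within an array were formed, which no scaling factor can change. miR-26a minus miR-26b on the log2 scale was 0.36 ± 0.19 (SD) in TEBs, 0.42 ± 0.25 in ducts and 0.22 ± 0.27 in stroma, where only the change between tissues can be read, since probes differ in brightness. That change was 0.13 between TEBs and stroma (p = 0.6, exact permutation test, two-sided), -0.06 between TEBs and ducts (p = 0.8, exact) and 0.19 between ducts and stroma (p = 0.4, exact). This permutation test cannot give a p under 0.1 with so few arrays.

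The families were set against each other by miR-101a minus the mean of miR-26a and miR-26b, a contrast chosen after miR-101b proved to be at background. It was -2.14 ± 0.03 in TEBs, -2.22 ± 0.36 in ducts and -2.04 ± 0.06 in stroma. The change was -0.09 between TEBs and stroma (p = 0.1, the smallest the exact permutation test allows), 0.09 between TEBs and ducts (p = 0.7, exact) and -0.18 between ducts and stroma (p = 0.5, exact). In the authors' normalized table the first of these was 0.05, with the opposite sign.

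The scaling decided some directions. A single factor per array moves all members by the same amount, whereas quantile normalization and the authors' table moved them apart, to -0.57 and -0.55 for miR-26a and -0.20 and -0.13 for miR-101a in TEBs over ducts. The median of the 167 miRNAs in TEBs over ducts was -0.10 in the main scaling, 0.45 with the percentile over all 611 miRNAs, -0.47 without scaling, 0.02 with quantile normalization and 0.01 in the authors' table. In TEBs over stroma it was -0.28, 0.12, -0.03, -0.07 and -0.02 in that order, and in ducts over stroma -0.09, -0.25, 0.50, -0.13 and -0.09.

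The 3 members lay below 0 in TEBs over stroma under every one of these scalings. They were called under the main scaling, quantile normalization and the authors' table. With the percentile over all miRNAs miR-26a, miR-26b and miR-101a stood at -0.21, -0.34 and -0.36 (adjusted p = 0.596, 0.364 and 0.389), and without scaling at -0.35, -0.48 and -0.51 (adjusted p = 0.115, 0.0592 and 0.0537). In TEBs over ducts the members turned positive with the percentile over all miRNAs, at 0.12, 0.18 and 0.24. In ducts over stroma they turned positive without scaling, at 0.45, 0.25 and 0.17, and miR-26a also did so, at 0.012 and 0.017, with quantile normalization and in the authors' table.

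**Figure D3:**
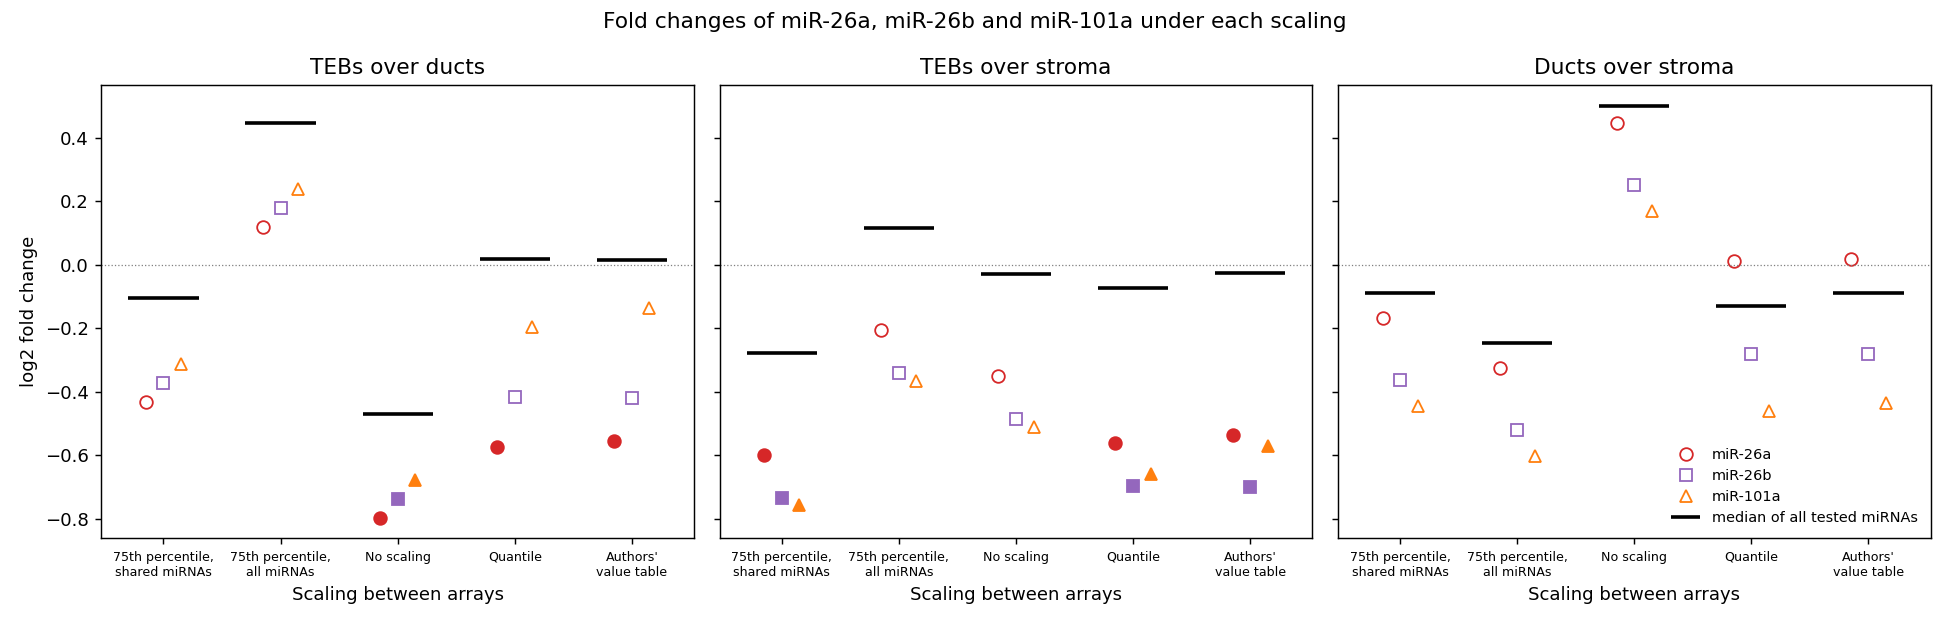
Log2 fold change of miR-26a, miR-26b and miR-101a under 5 scalings between arrays, for each pair of tissues. Filled symbols had an adjusted p under 0.05, and the black bar is the median of the 167 tested miRNAs. In TEBs over stroma the symbols lie below 0 and below the bar under each scaling, while in the other comparisons the sign turns under at least 1 of them.

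Among themselves, miR-26b and miR-101a had the most similar pattern over the 8 arrays, with a Pearson r of 0.929 of the log2 scaled signals. miR-26a correlated with miR-26b at r of 0.792 and with miR-101a at r of 0.800. The 8 points of each share tissue and scaling. After the tissue means were removed, r was 0.534 for miR-26b and miR-101a, 0.057 for miR-26a and miR-101a, and -0.624 for miR-26a and miR-26b, so that the shared-seed pair had its likeness in the tissue means and not within tissues.

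Of the 166 other tested miRNAs, the 3 most like miR-26a were miR-300 (r = 0.956), miR-30d (r = 0.926) and miR-23a (r = 0.924). For miR-26b they were miR-29a (r = 0.982), miR-126-3p (r = 0.972), the endothelial miRNA, and miR-139-5p (r = 0.967). For miR-101a they were miR-139-5p (r = 0.930), miR-26b (r = 0.929) and miR-337-5p (r = 0.925). These miRNAs other than miR-26b were all called lower in TEBs than in stroma, from -0.59 for miR-23a to -1.20 for miR-126-3p. Of all tested miRNAs, 44.3% were called lower in that comparison. The neighbours were picked by their correlation with the members over the same arrays, so that the choice itself favoured such calls. Their calls are therefore no separate evidence. None of these neighbours turned positive in TEBs over stroma under another scaling. Calls were lost, however: miR-126-3p and miR-139-5p were called under 4 of the 5 scalings, miR-23a, miR-29a and miR-30d under 3, and miR-300 and miR-337-5p under the main scaling alone. By rank correlation, 3 of the 3 names for miR-26a remained, 1 of 3 for miR-26b and 0 of 3 for miR-101a.

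Of the 9 listed passenger strands and seed relatives, 3 were on the array. Their sequences show how the relative differs from the guide strands above, with bases 2 to 8 in capitals.
miR-144: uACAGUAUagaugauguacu
miR-26b*: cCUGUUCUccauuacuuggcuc
miR-101a*: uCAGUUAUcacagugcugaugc
miR-144, an erythroid miRNA, shares bases 2 to 7 with miR-101a and differs from it at C8U. It was detected on 7 of 8 arrays, with scaled signals of 61.9, 46.3 and 30.4 units in stroma, 31.0 and 34.8 units in ducts and 20.2, 27.3 and 12.6 units in TEBs. All TEB arrays lay below the others, and the log2 difference of TEBs over stroma was -1.22 (adjusted p = 0.0216). That call was lost under each of the other 4 scalings described above, with adjusted p-values of 0.0918 to 0.178 and differences of -0.97 to -0.62. It did not pass the test in TEBs over ducts (-0.78, adjusted p = 0.165) or ducts over stroma (-0.43, adjusted p = 0.542). The passenger strands miR-26b*, at -0.59 to 14.4 units, and miR-101a*, at -23.9 to -6.87 units, were detected on 0 of 8 arrays.

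Other miRNAs reported to target Ezh2 were taken as a list of 15, of which 12 were tested and miR-138, miR-124 and miR-217 were detected on no array. In TEBs over stroma 5 of the 12 were called lower, against 44.3% of all tested miRNAs, and 1 was called higher, against 20.4%. The lower ones were let-7a (-0.28, adjusted p = 0.0335), let-7d (-0.30, 0.0185), let-7f (-0.39, 0.0132), let-7g (-0.57, 0.00337) and miR-30d (-0.71, 0.00381), of which let-7a, let-7d and let-7f turned positive with the percentile over all miRNAs. let-7g and miR-30d stayed negative but were not called with that percentile (adjusted p = 0.623 and 0.403) or without scaling (adjusted p = 0.137 and 0.0537). The let-7 family restrains proliferation and is held back in stem cells, and its members are near-identical, so that their signals may share RNA. miR-214, which is produced in fibroblasts and muscle, was higher (0.85, adjusted p = 0.000583) under all 5 scalings.

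The median log2 difference of the 12 in TEBs over stroma was -0.11, against -0.28 over all tested miRNAs and -0.60 to -0.76 for the 3 members. In TEBs over ducts 0 of the 12 were called by limma, with 2 at an unadjusted p under 0.05 (49.1% of all tested miRNAs), 0 by the methods' t-test after adjustment and 3 without (31.7% of all). Their median there was -0.08 against -0.10 over all. In ducts over stroma 2 were called lower, let-7f (-0.40, adjusted p = 0.0405) and let-7g (-0.46, 0.0277), against 12% of all tested miRNAs, and both turned positive without scaling and were called under the main scaling alone. In the same comparison miR-214 was called higher (0.53, adjusted p = 0.0167), against 9.58%, but not with the percentile over all miRNAs (adjusted p = 0.542). The list's median there was -0.12 against -0.09 over all.

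The makeup of the fractions was read from 6 short lists of marker miRNAs. In the summed signal of a list, negative signals were counted as 0. At the main scaling the endothelial list alone had its tissues in the order of the member means with no overlap. The epithelial list (miR-200a, miR-200b, miR-200c, miR-141, miR-429 and miR-205) was detected in full on every TEB and duct array and 6 of 6 were at background in stroma, with a summed scaled signal of 0 to 5.52 units there, 2077 to 2316 in ducts and 1948 to 2057 in TEBs. The labelled tissues therefore carried the epithelial markers where they should. The members miR-26a, miR-26b and miR-101a were present in all fractions, and at the main scaling their means were highest in the fraction that lacked this list.

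The endothelial list moved in the order of the members, at 2765 to 3863 units in stroma, 1927 to 2061 in ducts and 1315 to 1650 in TEBs, carried by miR-126-3p while miR-126-5p was detected on no array. In TEBs over ducts miR-126-3p did not pass the limma test (-0.45, adjusted p = 0.0825). It passed there only without scaling (-0.82), and stood at 0.10 with the percentile over all miRNAs. The fat list (miR-378 and miR-378*) was at 325 to 362 units in stroma, 51.7 to 101 in ducts and 81.5 to 154 in TEBs. The leukocyte list was at 557 to 661 units in stroma, 359 to 368.5 in ducts and 296 to 447 in TEBs, with 2 of 3 markers detected and miR-142-5p on no array. The red cell list (miR-451 and miR-144) was at 1988 to 3577 units in stroma, 2591 to 3276 in ducts and 1370 to 1902 in TEBs.

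The fibroblast and smooth muscle list did not follow that order. It was at 2467 to 2964 units in stroma, 3427 to 3512 in ducts and 3160 to 3779 in TEBs, with 4 of 5 markers detected on all arrays and miR-145 on none. Most of that sum was miR-199a-3p, at 1984 to 2445 units in stroma and 2421 to 3003 units in TEBs. It was called higher in TEBs than in stroma (0.37, adjusted p = 0.0393), as were miR-199a-5p (0.69, adjusted p = 0.00480) and miR-214. miR-143, of the same list, was called lower in TEBs than in stroma (-0.40, adjusted p = 0.0353), under the main scaling alone. It was also called lower in TEBs than in ducts (-0.61, adjusted p = 0.0274), but only under the main scaling and without scaling. The part of these cell types in the differences of miR-26a, miR-26b and miR-101a was not tested.

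**Figure D4:**
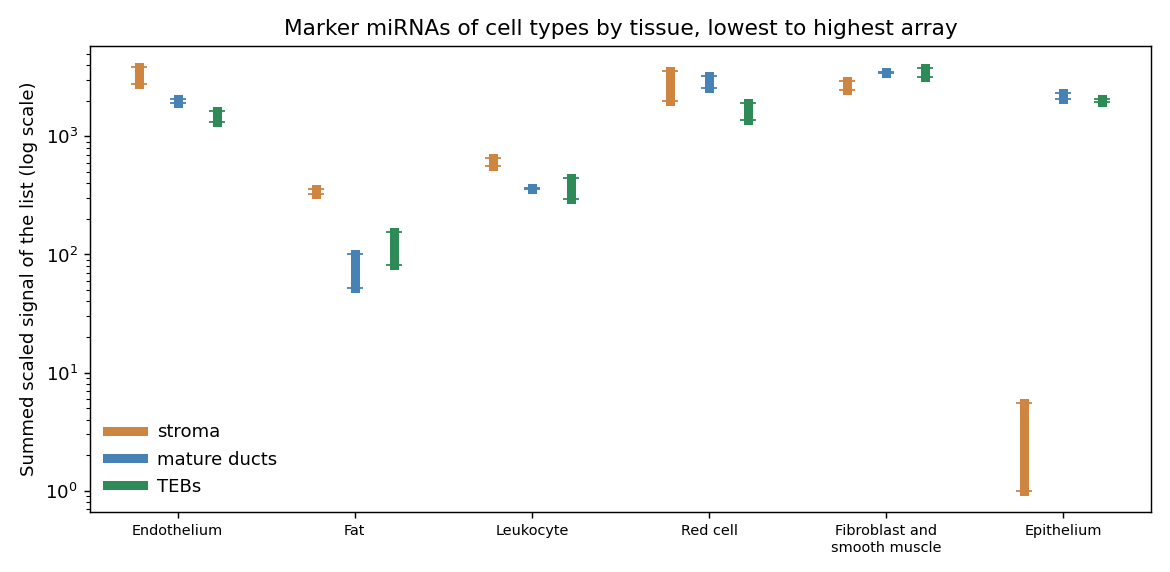
Summed scaled signal (arbitrary units, log scale) of 6 lists of marker miRNAs in stroma, ducts and TEBs. Each line runs from the lowest to the highest array of a tissue. Negative signals were counted as 0 in the sums, and sums under 1 are drawn at 1. The epithelial list is at 0 to 5.52 units in stroma, and the endothelial list is highest in stroma and lowest in TEBs.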

How the data were processed

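miRNAs were measured on 8 single-colour Agilent mouse miRNA arrays, with groups taken from the tissue each label names. The authors deposited total signal intensities with their errors and detection flags, made by Agilent Feature Extraction 9.5.3 and not normalized between arrays, and a table of log2 values. The deposited log2 table keeps each array's order of signals above 1 and has the same 90th percentile (7.05) on every array, as after quantile normalization. Its method is not given in the sources used here, and it served as an alternative.

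Controls (22 features) and 39 viral miRNAs were left out. Intensities were scaled by the 75th percentile over the 108 miRNAs that every array detected. The percentile over all 611, which lies at the edge of detection, was an alternative. Values under 1 were set to 1 and log2 taken. The 167 miRNAs that some tissue showed on all of its arrays were fitted together by lmFit, contrasts.fit and eBayes of limma 3.58.1 (R 4.3.3), with Benjamini-Hochberg adjustment per comparison and a threshold of 0.05. The procedure was tested on simulated data. Precision is given by the spread between arrays, whose number limits it.

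The text names the 4 members, the 3 miRNAs most correlated with each, and, from the lists, some of the miRNAs that passed a test and those detected on no array. The others are counted. Members and lists were chosen with earlier results of these data known. Alternatives covered scaling, floor, background, filters, replicate block, array row, the methods' t-test and leaving out each array. With an array left out, the scaling factors and the filter were formed anew from the arrays kept.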

Additional observations from a re-analysis of the deposited data

How the results depend on the processing

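The lower signals of miR-26a, miR-26b and miR-101a in TEBs than in stroma kept their direction in 25 of 25 alternatives. Among these, the detection filters, the replicate block and the methods' t-test left the difference itself unchanged, so that its direction could not turn. The members were called in 20 of the 22 with an adjusted test. Leaving out each array gave -0.71 to -0.50, -0.80 to -0.67 and -0.82 to -0.69. The calls were lost with the percentile over all 611 miRNAs (-0.21, -0.34 and -0.36) and without scaling (-0.35, -0.48 and -0.51). With that percentile the TEB over duct differences turned to 0.12, 0.18 and 0.24, and 66 miRNAs (against 108) were called in TEBs over stroma and 19 (against 36) in ducts over stroma. Without scaling TEBs over ducts gave -0.80, -0.74 and -0.68 (adjusted p = 0.0192, 0.0261 and 0.0338) with 75 calls (against 41), and ducts over stroma turned to 0.45, 0.25 and 0.17 with 56 calls. The shifts of these values, not the calls, follow from the scaling factors by construction.

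In TEBs over ducts, miR-26a passed the test with quantile normalization (-0.57, adjusted p = 0.0461), the authors' table (-0.55, 0.0393) and normexp with an offset of 50 (-0.37, 0.0486). Both miR-26a and miR-26b passed with 16 added in place of the floor (-0.42 and -0.35, adjusted p = 0.0403), with only the 108 miRNAs detected on all arrays tested (-0.43 and -0.37, 0.0465) and with a trend and robust estimation (-0.43 and -0.37, 0.0391 and 0.0388). The methods' t-test without adjustment called miR-26a there (-0.43) and miR-26b in ducts over stroma (-0.36). In ducts over stroma miR-26a turned to 0.012 with quantile normalization and 0.017 in the authors' table, miR-26b passed with the trend (-0.36), and miR-26b and miR-101a passed with normexp (-0.33 and -0.40). The cause of these changes was not tested.

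The count of calls in TEBs over ducts was 71 with 16 added, 18 with no detection filter, where 611 miRNAs were tested, and 12 with the methods' t-test after adjustment, and that in ducts over stroma was 66 with normexp. Higher and lower calls, 19 and 22 in TEBs over ducts, were 24 and 6 with the percentile over all miRNAs, 12 and 63 without scaling, 30 and 12 with quantile normalization and 32 and 18 in the authors' table. In TEBs over stroma (34 and 74) they were 38 and 28, 41 and 41 without scaling, and 43 and 60 in the authors' table. In ducts over stroma (16 and 20) they were 11 and 8, and 52 and 4 without scaling.

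Leaving out each array gave 5 to 70 calls in TEBs over ducts, with 10 without duct replicate 1, 70 without TEB replicate 1 and 5 without TEB replicate 2. miR-26a then lay at -0.71 to -0.40, miR-26b at -0.69 to -0.27 and miR-101a at -0.80 to -0.04. In ducts over stroma they lay at -0.17 to 0.080, -0.46 to -0.04 and -0.72 to 0.042. miR-26a was positive without TEB replicate 1 and miR-101a without duct replicate 1. The scaling factors were formed anew from the arrays kept each time. TEB replicate 1 is in neither of these tissues, so that its leaving out acted there through the scaling. With a duct array left out, the lone array is assumed to vary like the other groups. The change of miR-26a minus miR-26b ran from -0.0027 to 0.27 in TEBs over stroma and from -0.24 to 0.12 in TEBs over ducts. That of miR-101a minus miR-26 ran from -0.17 to 0.34 in TEBs over ducts and from -0.44 to 0.077 in ducts over stroma, and was 0.048 in TEBs over stroma in the authors' table.

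Whether replicate numbers pair arrays of different tissues could not be decided. The mean correlation of deviations was -0.10 over 7 pairs with the same number and 0.05 over 14 with different numbers. With 2 duct arrays, however, their deviations mirror each other, so that their correlations only differ in sign. Between stroma and TEBs r was 0.31, 0.36 and -0.14 for the same number, and -0.50 to 0.40 for different numbers. Blocking on the replicate number, 16 miRNAs were called in TEBs over ducts, 108 in TEBs over stroma and 31 in ducts over stroma, and no call of a member changed. The slide held the arrays in 2 rows, each with all tissues. Within rows 1 and 2, no sign changed for a member in TEBs over stroma, whereas TEBs over ducts gave -0.22 and -0.58 for miR-26b, and 0.0088 and -0.69 for miR-101a. The contrast of miR-101a with miR-101b was not run because miR-101b was at background.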
